A study of Danio rerio with 15 samples.

Results

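The C/EBP genes encode basic leucine zipper transcription factors that bind CCAAT-type enhancer sites as dimers. The 5 members described here were CEBPD (ENSDARG00000087303), taken by its identifier, and CEBPA (ENSDARG00000036074), CEBPB (ENSDARG00000042725), cebpg (ENSDARG00000036073) and cebp1 (ENSDARG00000101096), taken by name, out of 32520 genes in the count table. Their RNA was measured in whole wild-type zebrafish larvae at 5 days post fertilization, in 15 libraries. The larvae were offspring of adults fed for 60 days on blackworms that had spent 14 days in water with sodium arsenite, and the larvae themselves were reared in arsenic-free medium. The Control diet came from worms kept without arsenite (0 mg/L) and held less than 0.05 µg arsenic per g dry weight. The Low diet came from worms kept at 2.5 mg/L, and its arsenic content is given as 32.4 µg/g in the sample labels and 33.42 µg/g in the protocol. The High diet came from worms kept at 5.0 mg/L and held 72.47 µg/g. Each group had 5 libraries. The labels do not say whether libraries of a group came from separate clutches or parents, so each p-value speaks only of the spread among these libraries, which may be technical.

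In mammals, C/EBPα drives the differentiation of hepatocytes, granulocytes and adipocytes, while C/EBPβ and C/EBPδ are induced within hours by inflammatory cytokines acting through STAT3 and by glucocorticoids, and switch on acute phase genes in the liver. C/EBPγ lacks an activation domain of its own and works mainly as a dimer partner. In zebrafish, cebp1 is a member of the family known from myeloid cells.

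Total counts per library ran from 21.2 M to 59.9 M, and levels are given as CPM, counts scaled to the library total after TMM normalization. Digestive organ transcripts varied strongly within every group: the mean log2 CPM of 56 pancreas, liver and intestine markers ran from -0.96 to 6.07 in High, from -1.34 to 5.4 in Low and from -0.72 to 6.04 in Control. Skin, skeletal muscle and neuron markers were all detected, with library means of at least 6.82 on that scale. Of the 5 members 4 had enough counts to be tested and cebp1 did not. In whole larvae, a lower transcript level cannot be told apart from fewer cells of the type that makes it.

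CEBPD was the member that moved. It fell in larvae of High parents, with a fitted level 3.34-fold lower than in Control, and every High library lay below every Low and every Control library. Of all genes, 2.39% had all High libraries below Control and 2.43% had them all below Low. The share below both groups was not counted. CEBPA, CEBPB and cebpg had High means that were lower than the Control means by smaller amounts, and none of these passed the test. No member passed between Low and Control, where the CEBPD libraries overlapped.

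CEBPD had 45.8, 45.1, 52.7, 35.1 and 41.7 CPM in High 1 to 5. In Low 1 to 5 it had 105, 77.7, 119, 84.6 and 70.1 CPM. Control 1 to 5 had 277, 105, 114, 147 and 94.4 CPM. The High libraries were the 5 lowest of all 15, and Control 1 stood far above every other library. The reads behind these values were between 755 and 7361 per library, so counting error is small beside the spread between libraries.

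The CEBPD level averaged 44.1 ± 6.42 CPM in High and 147 ± 75 CPM in Control (SD, n = 5 each). The log2 fold change was -1.74 (SE 0.26, 95% interval -2.31 to -1.18), with an adjusted p of 0.013 (edgeR quasi-likelihood test, Benjamini-Hochberg over 22012 genes). This was the 17th smallest p of all genes, and CEBPD was the 9th lowest by log2 fold change of the 73 genes that fell. Over all genes tested, 0.522% were called between High and Control, 0.332% as lower and 0.191% as higher in High. High libraries lay all below the Control libraries in 2.39% of genes and all above them in 2.02%. Leaving out any 1 of the 15 libraries kept the call, at an edgeR adjusted p of up to 0.0498 (without High 4). It was also near the threshold without High 1 (0.047), High 2 (0.044) or High 5 (0.046), and in the fit of only High and Control (0.048). Control 1 sets much of the Control mean: without it the log2 fold change was -1.38, with an edgeR adjusted p of 0.0057.

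**Figure D1:**
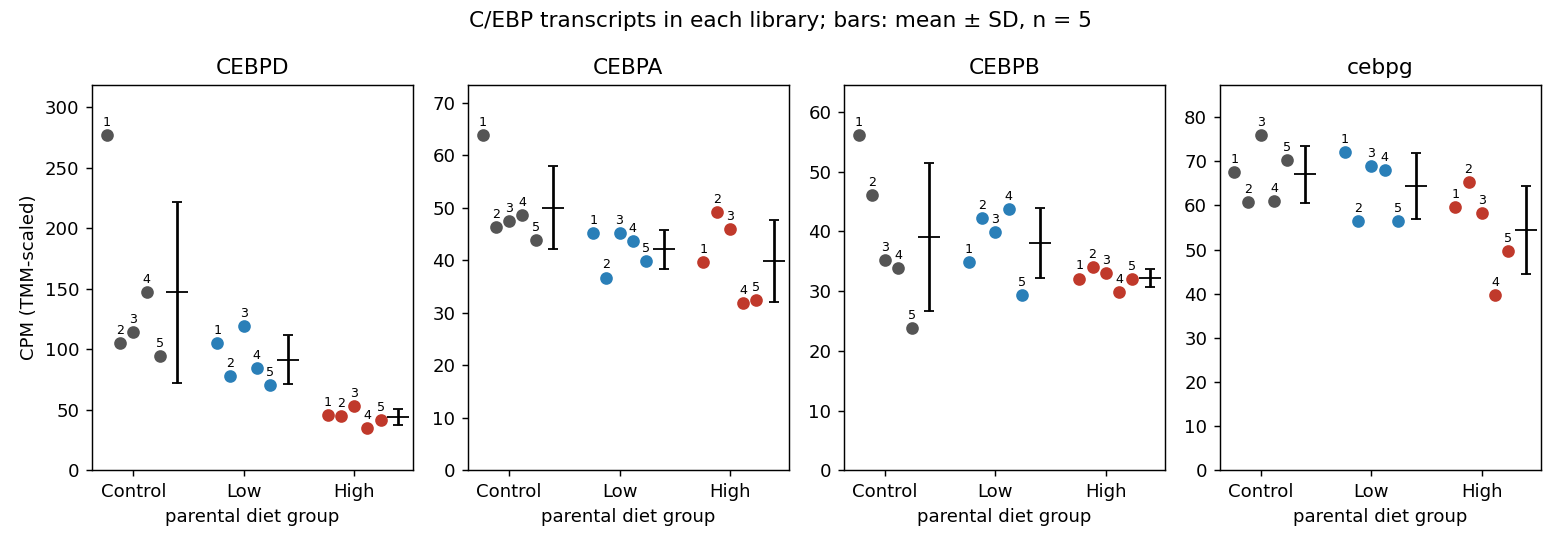
CPM of CEBPD, CEBPA, CEBPB and cebpg in each library (points, numbered by replicate) of the Control, Low and High groups, with the group mean and SD (n = 5) as a bar beside them; each panel has its own axis from 0. The CEBPD panel shows High at 35.1 to 52.7 CPM, under Low at 70.1 to 119 CPM and Control at 94.4 to 277 CPM, while the groups overlap in the other panels.

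Between High and Low, CEBPD averaged 44.1 ± 6.42 CPM in High and 91.3 ± 20.3 CPM in Low (SD, n = 5 each). The groups did not overlap, which held for 4.31% of all genes, 2.43% with High below and 1.88% with High above. The log2 fold change of -1.05 (SE 0.26, 95% interval -1.6 to -0.5) narrowly missed the threshold of 0.05, at an edgeR adjusted p of 0.055 (1.71% of all genes were called, 1.04% as lower and 0.672% as higher in High). It passed with DESeq2 (0.0039), with limma voom with sample weights (0.0062) and in a fit of only High and Low (edgeR adjusted p = 0.026). These settings called 1679, 4656 and 118 genes in all, against 377 in the reported fit. CEBPD missed with other scaling, other low-count filters or the replicate block (edgeR adjusted p of 0.057 to 0.068) and with the digestive covariate (0.18). Fits that left out 1 library reached an edgeR adjusted p of 0.145 (without Low 3), and 3 of 15 passed. Those 3 were the fits without Control 1 (0.02), without Control 2 (0.048) and without Low 5 (0.017).

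The Low mean of CEBPD was 91.3 ± 20.3 CPM, against 147 ± 75 CPM in Control (SD, n = 5 each), and all 5 Low libraries lay below the Control mean. The Low libraries nevertheless spanned 70.1 to 119 CPM and so overlapped with Control, whose lowest library had 94.4 CPM. The log2 fold change was -0.69 (SE 0.26, 95% interval -1.24 to -0.14), with an edgeR adjusted p of 0.45. Control 1 decides its size: without that library the log2 fold change was -0.33 (edgeR adjusted p = 0.72). Low libraries lay all below Control in 0.813% of genes and all above in 0.495%. In this comparison edgeR called 0 of 22012 genes (0%), with 2098 at an unadjusted p below 0.05, while 64 were called by DESeq2 and 1431 by limma voom with sample weights. CEBPD was not among the genes called by either of the other tools.

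The spread of CEBPD between libraries also differed between groups. Its coefficient of variation was 14.6% in High, 22.2% in Low and 50.9% in Control, and the last of these rests largely on Control 1. No test of the spread was made.

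CEBPA, which encodes the family member tied to liver, granulocyte and fat cell differentiation, had 39.6, 49.1, 45.9, 31.8 and 32.4 CPM in High 1 to 5. It had 45.1, 36.7, 45.1, 43.6 and 39.9 CPM in Low 1 to 5, and 63.8, 46.3, 47.5, 48.6 and 43.9 CPM in Control 1 to 5. High 2 and High 3 lay among the Control libraries, while High 4 and High 5 were the lowest of all 15. The mean was 39.8 ± 7.81 CPM in High and 50 ± 7.89 CPM in Control (SD, n = 5 each), with a log2 fold change of -0.33 (SE 0.13, 95% interval -0.62 to -0.05, edgeR adjusted p = 0.24). For Low, with a mean of 42.1 ± 3.69 CPM (SD, n = 5), the log2 fold change from Control was -0.25 (SE 0.13, 95% interval -0.53 to 0.04, edgeR adjusted p = 0.58). The interval of the difference between High and Low ran from -0.37 to 0.2.

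CEBPB encodes the cytokine-responsive factor closest in role to C/EBPδ. It had 32.1, 34, 33, 29.8 and 32 CPM in High 1 to 5, against 34.9, 42.2, 39.9, 43.7 and 29.4 CPM in Low 1 to 5 and 56.1, 46.1, 35.2, 33.9 and 23.8 CPM in Control 1 to 5. High libraries were nearly level, with a coefficient of variation of 4.88%, and lay inside the Control range, whose ends were Control 5 and Control 1. The log2 fold change of CEBPB was -0.28 between High and Control (SE 0.18, 95% interval -0.66 to 0.1, edgeR adjusted p = 0.48). It was -0.24 between High and Low (95% interval -0.62 to 0.14, edgeR adjusted p = 0.43) and -0.04 between Low and Control (95% interval -0.42 to 0.34, edgeR adjusted p = 0.97). In the RefSeq annotation of GRCz12tu, a later assembly than the one named for these counts, a long non-coding RNA gene overlaps cebpb. The use of strand in counting is not given in the sources used here, so the CEBPB value may include reads of an overlapping gene.

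The dimer partner gene cebpg had 59.6, 65.2, 58.3, 39.6 and 49.6 CPM in High 1 to 5. It had 72, 56.4, 69, 68 and 56.5 CPM in Low 1 to 5, and 67.6, 60.7, 75.9, 61 and 70.3 CPM in Control 1 to 5. High 4 and High 5 were again the lowest of all libraries, and only High 2 reached into the Control range. Its mean of 54.5 ± 10 CPM in High and 67.1 ± 6.45 CPM in Control (SD, n = 5 each) gave a log2 fold change of -0.3 (SE 0.12, 95% interval -0.57 to -0.04, edgeR adjusted p = 0.25). From Low, with 64.4 ± 7.38 CPM (SD, n = 5), High differed by -0.24 (SE 0.12, edgeR adjusted p = 0.27), and Low from Control by -0.06 (SE 0.12, edgeR adjusted p = 0.93). The genes cebpa and cebpg are next to each other in the RefSeq annotation of GRCz12tu. High 4 and High 5, where CEBPA and cebpg were lowest, had digestive marker means of 6.07 and 5.98 on the log2 CPM scale, among the 3 highest of all libraries. Control 2, at 6.04, had 46.3 CPM of CEBPA and 60.7 CPM of cebpg. Low 5, at 5.4, had 39.9 and 56.5 CPM. High 2, at 5.23, had 49.1 and 65.2 CPM, the highest of the High libraries for both genes. The part of digestive content in the CEBPA and cebpg values was not tested.

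The myeloid member cebp1 was at the edge of detection. It had 0 to 3 counts in High libraries, 0 to 4 in Low and 0 to 3 in Control, or 9, 5 and 8 counts in all over the 5 libraries of each group. The 5 libraries with no count allow a level of up to 0.14 CPM (3 counts in High 4), a limit that covers counting error only. It did not pass the filter on low counts, and no difference was detectable at this depth.

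**Figure D2:**
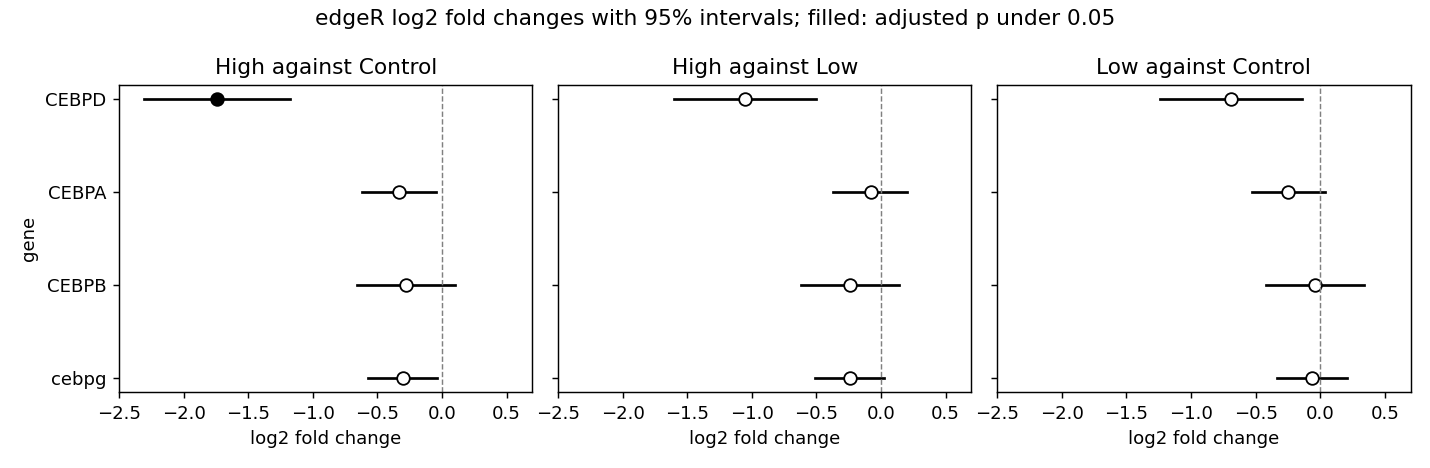
Log2 fold changes (horizontal axis) of the 4 tested members in High against Control, High against Low and Low against Control, with 95% intervals as lines; a filled point marks an edgeR adjusted p under 0.05. CEBPD in High against Control, at -1.74, is the only filled point, and the intervals of the other members end at -0.66 or nearer to 0.

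CEBPD was also lower relative to its relatives in the same library. Ratios of CPM between members depend on transcript length, so they are compared only between groups. The ratio of CEBPD to CEBPA was 0.919 to 1.29 in High, against 1.76 to 2.64 in Low and 2.15 to 4.34 in Control. The ratio to CEBPB was 1.18 to 1.59 in High, 1.84 to 3 in Low and 2.28 to 4.94 in Control. For cebpg it was 0.691 to 0.904 in High, 1.24 to 1.73 in Low and 1.34 to 4.1 in Control. High libraries lay below every Low and Control library in all 3 ratios, and Low and Control overlapped in all 3. The 3 ratios share the CEBPD value of each library, so they are not 3 separate observations. CEBPD was singled out for its fall, so these ratios are a description and were not tested.

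**Figure D3:**
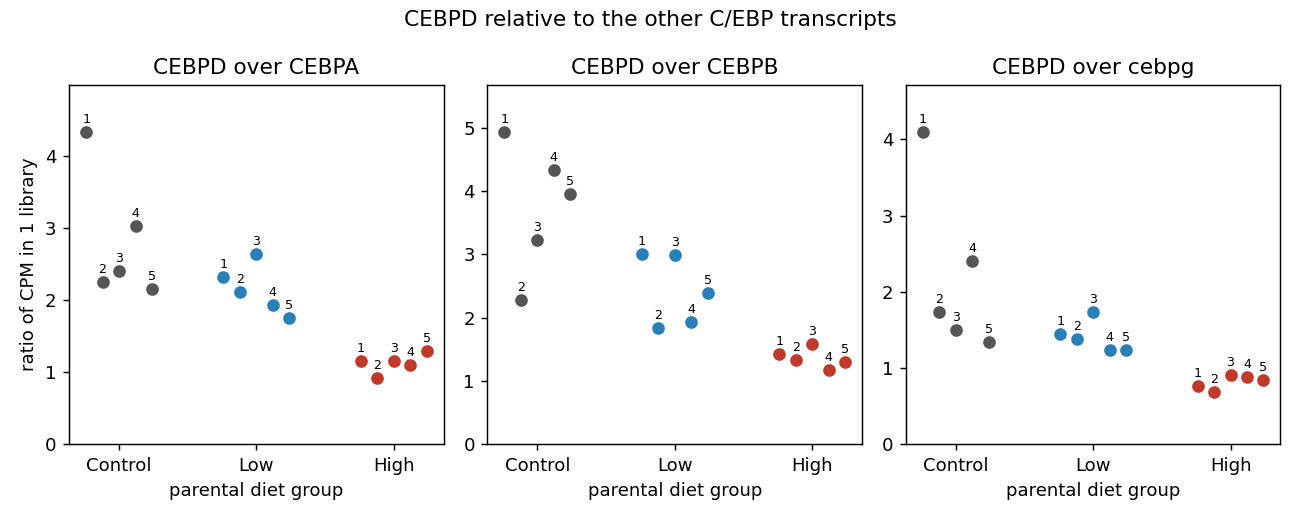
Ratio of CEBPD CPM to the CPM of CEBPA, CEBPB and cebpg in the same library (points, numbered by replicate) for Control, Low and High; the axes start at 0. In each panel the 5 High points lie together below all others, at 0.919 to 1.29, 1.18 to 1.59 and 0.691 to 0.904.

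CEBPD was low in all High libraries, of which High 3 was the only one poor in digestive transcripts. High 3, with a marker mean of -0.96, had 52.7 CPM, the highest CEBPD value in High. High 1, 2, 5 and 4, at 3.22, 5.23, 5.98 and 6.07, had 45.8, 45.1, 41.7 and 35.1 CPM. Within High, CEBPD was thus lower the higher the marker mean. Low 5, the only Low library rich in these markers (5.4), had 70.1 CPM, the lowest CEBPD value in Low. Low 1 to 4, at 0.99, -0.25, -1.26 and -1.34, had 105, 77.7, 119 and 84.6 CPM. Control libraries poor in these markers, Control 3 and Control 5, had 114 and 94.4 CPM, and those richest in them, Control 2 and Control 4, had 105 and 147 CPM. The order seen in High was absent in Control and among Low 1 to 4. With the digestive marker mean as a covariate, the log2 fold change of CEBPD between High and Control was -1.69 (edgeR adjusted p = 0.022), and without High 3 it was -1.81 (edgeR adjusted p = 0.018). Between High and Low the covariate gave -0.92 (edgeR adjusted p = 0.18). With High 3 as the only poor High library, the part of digestive content in the CEBPD values was not tested. Control 1, the highest CEBPD library, had a liver marker mean of 6.44 and a pancreas marker mean of -1.3.

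**Figure D4:**
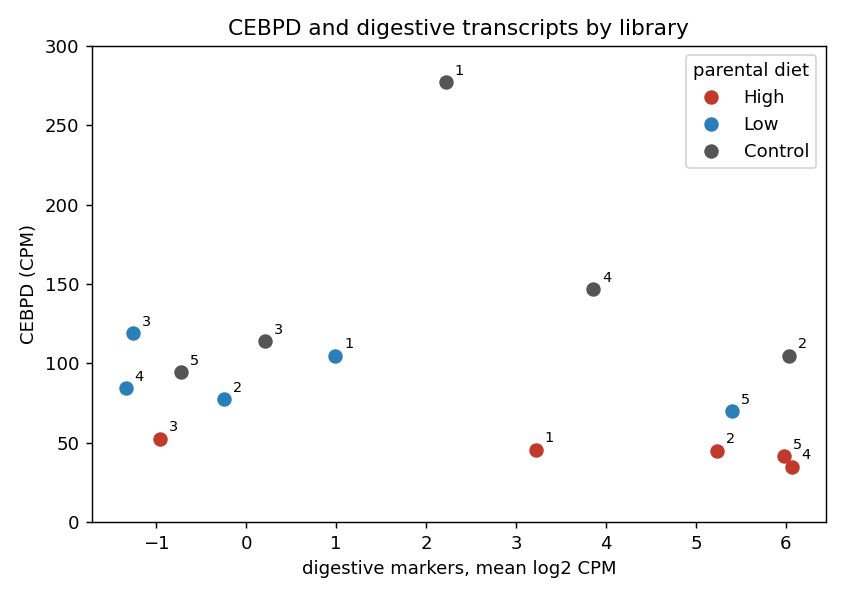
CEBPD (CPM, vertical axis from 0) against the mean log2 CPM of 56 digestive markers in each library, coloured by group and numbered by replicate. High libraries lie at 35.1 to 52.7 CPM, under the Low and Control libraries. High 3 has a digestive mean of -0.96, and the other High libraries lie at 3.22 to 6.07.

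The genes whose log2 CPM followed CEBPD most closely over the 15 libraries, among 14770 genes searched, were TXNIP (ENSDARG00000036107), CCNG2 (ENSDARG00000017602) and SOCS3 (ENSDARG00000025428). Pearson's r was 0.96, 0.95 and 0.94. Without Control 1 and High 4, the libraries farthest from the CEBPD median, it was 0.91, 0.91 and 0.89, and with the group means removed 0.87, 0.82 and 0.9. These values are a description of libraries that also share the group differences. The genes were picked for this likeness, so a shared fall in High and a shared peak in Control 1 are no separate evidence.

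SOCS3 encodes a feedback inhibitor of cytokine and STAT3 signalling. It had 6.1, 10.4, 11.5, 5.94 and 7.66 CPM in High 1 to 5, against 31, 22.9, 42.6, 26.1 and 10.4 CPM in Low 1 to 5 and 80.6, 27.2, 21.9, 30.5 and 15.7 CPM in Control 1 to 5. All High libraries lay below the Control libraries, as in 2.39% of all genes, and Control 1 was again the highest. The log2 fold change between High and Control was -2.08 (SE 0.45) and just missed the threshold, with an edgeR adjusted p of 0.056. A second gene named SOCS3 (ENSDARG00000026611) had a log2 fold change of -0.28 (edgeR adjusted p = 0.23).

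TXNIP encodes an inhibitor of thioredoxin. It had 304 ± 53.5 CPM in High and 554 ± 141 CPM in Control (SD, n = 5 each) and fell, with a log2 fold change of -0.86 (SE 0.16, adjusted p = 0.035 by edgeR). CCNG2, the gene of an unconventional cyclin tied to cell cycle arrest, fell to 65.5 ± 7.24 CPM in High, against 105 ± 20 CPM in Control (SD, n = 5 each), and its log2 fold change was -0.68 (SE 0.12, edgeR adjusted p = 0.025). A second gene named TXNIP (ENSDARG00000070000) had a log2 fold change of -0.3 between High and Control (edgeR adjusted p = 0.5). Neither TXNIP (ENSDARG00000036107) nor CCNG2 passed in High against Low (edgeR adjusted p = 0.15 and 0.067) or in Low against Control (0.46 and 0.57). For both, the highest value was in Control 1, at 792 CPM for TXNIP and 139 CPM for CCNG2.

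**Figure D5:**
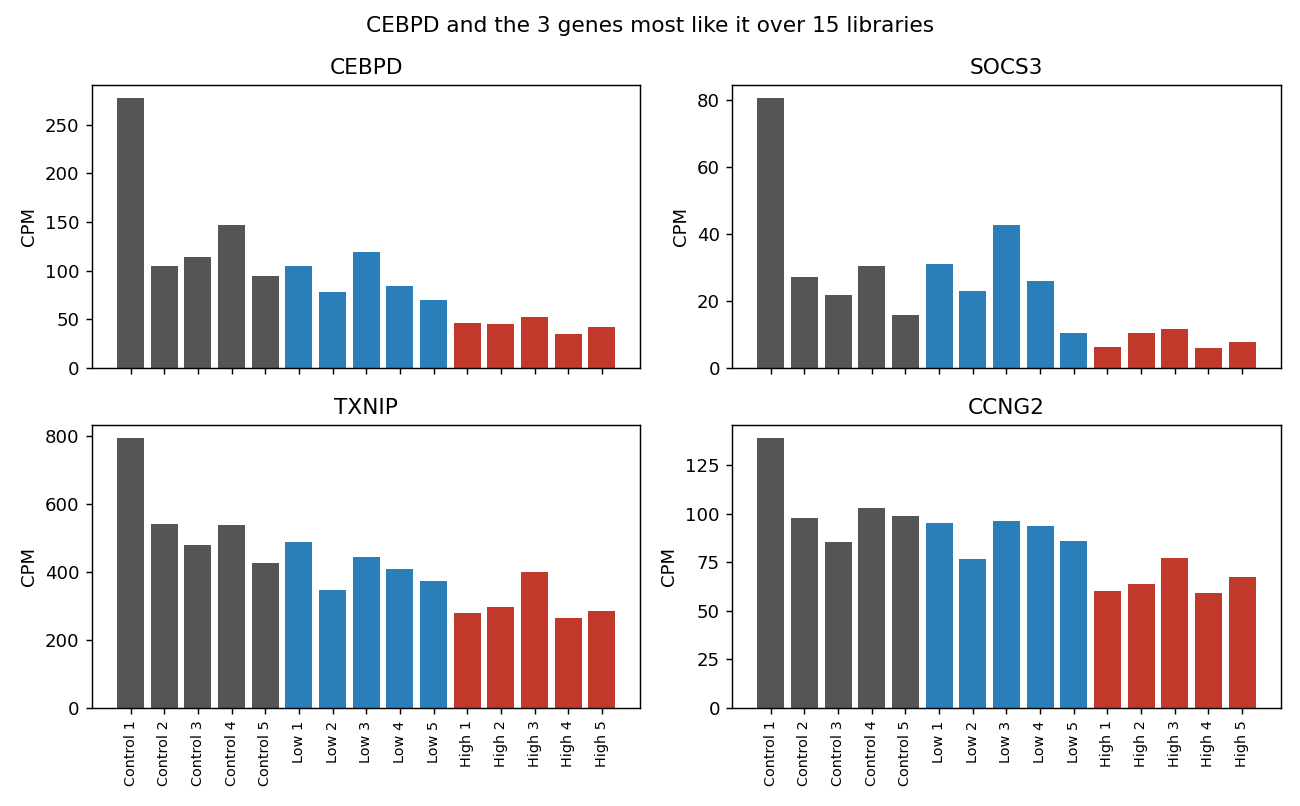
CPM (bars from 0) of CEBPD, SOCS3 (ENSDARG00000025428), TXNIP (ENSDARG00000036107) and CCNG2 in each of the 15 libraries, ordered as Control, Low and High. Control 1 is the highest bar in every panel, at 277, 80.6, 792 and 139 CPM. In every panel all High bars lie below all Control bars, as in 2.39% of all genes. SOCS3, TXNIP and CCNG2 were chosen for their likeness to CEBPD over these same libraries, so a shared pattern is built into the choice.

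For CEBPA the most alike genes were mcl1b, an anti-apoptotic gene of the Bcl-2 family, the adaptor gene sh3bp2 and the cytokine gene il15, with r of 0.94, 0.93 and 0.92 over 15 libraries and 0.85, 0.87 and 0.81 without High 4 and Control 1. For CEBPB they included the kinase gene map4k6 and mdm2, whose product marks p53 for degradation, with r of 0.82 and 0.8. Without Control 1 and Control 5 these were 0.79 and 0.74. For cebpg they were TBC1D25, SVBP and TMEM218, with r of 0.9, 0.89 and 0.88, and 0.71, 0.81 and 0.73 without High 4 and Control 3. None of these 8 genes passed the edgeR test in any comparison.

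Single genes named from the lists below without having passed were chosen after their values were seen. Among upstream genes, the list of cytokine and STAT3 signalling genes had 18 tested members. In High against Control 0 rose, 1 fell and 17 did not pass, where 0.332% of all genes were called lower and 0.191% higher in High. The median log2 fold change was -0.2 against -0.015 over all genes. The 1 that fell was lifrb (ENSDARG00000039863), a receptor subunit for the cytokine LIF, with 9.02, 10.4, 11.6, 8.59 and 9.34 CPM in High 1 to 5 and 16.2, 18.4, 15.1, 16.5 and 12.8 CPM in Control 1 to 5. All its High libraries lay below its Control libraries, as in 2.39% of all genes, and its log2 fold change was -0.69 (SE 0.14, edgeR adjusted p = 0.049). That call is borderline: it was kept in 4 of 15 fits without 1 library and was lost in 7 of the 8 other settings, all but DESeq2, at adjusted p of 0.051 to 0.13. Both SOCS3 genes described above are also on this list, with log2 fold changes of -2.08 and -0.28, and neither passed. Of the 18 tested members, 11 lay below 0 in High against Control and 7 above. The RNA of STAT3 itself, the factor through which these cytokines act, had 49 ± 13.4 CPM in High and 45.2 ± 10.2 CPM in Control (SD, n = 5 each, edgeR adjusted p = 0.82). The activity of the STAT3 protein was not measured. In Low against Control and in High against Low 0 members of the list passed.

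Glucocorticoid signalling is another known inducer of CEBPD. Of 13 tested members of that list, 0 passed in High against Control, where 11 lay below 0 and the median log2 fold change was -0.63. In Low against Control 0 passed, with 10 below 0 and a median of -0.49. Over all genes, 52.1% lay below 0 in High against Control and 49.6% in Low against Control. The receptor gene NR3C1 had 10.7 ± 3.35 CPM in High and 14.6 ± 4.08 CPM in Control (SD, n = 5 each, edgeR adjusted p = 0.39). Among the receptor's readouts, tsc22d3 had 101 ± 20 CPM in High, 113 ± 14.9 CPM in Low and 169 ± 49.8 CPM in Control (SD, n = 5 each). Its High and Low libraries lay below every Control library, as in 2.39% of all genes for High and 0.813% for Low. For Low this was almost a tie: Low 5 and Control 3 both had 128 CPM after rounding. The edgeR adjusted p was 0.078 for High and 0.43 for Low. FKBP5 and KLF9 had their lowest mean in Low: FKBP5 had 215 ± 130 CPM in High, 78.4 ± 84.8 CPM in Low and 309 ± 158 CPM in Control, and KLF9 had 23.2 ± 14.4, 11.7 ± 8.57 and 52.5 ± 23.7 CPM in the same groups (SD, n = 5 each, none passing). All Low libraries of KLF9 lay below its Control libraries, as in 0.813% of all genes (log2 fold change -2.16, edgeR adjusted p = 0.43). The genes nearest to the threshold in High against Control, DUSP1 and DDIT4, had the same order of means as CEBPD. PER1 (ENSDARG00000012499), with an edgeR adjusted p of 0.09 in that comparison, had its highest mean in Low. DUSP1, a phosphatase gene, had 26.3 CPM in High, 29.9 CPM in Low and 41.9 CPM in Control (edgeR adjusted p = 0.057 for High against Control). DDIT4, which encodes an inhibitor of mTORC1, had 25.4, 39.1 and 78.2 CPM in the same groups (edgeR adjusted p = 0.061). In all, 4 of the 13 genes had their means in the order of CEBPD, lowest in High and highest in Control, 6 had their lowest mean in Low, and 3 had their lowest mean in High and their highest in Low.

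In High against Low, 1 glucocorticoid list member fell and 12 did not pass, where 1.04% of all genes were called lower and 0.672% higher in High. The list member that fell was PER1 (ENSDARG00000012499), a clock gene that glucocorticoids also induce. It had 4.41, 3.75, 6.24, 6.08 and 4.1 CPM in High 1 to 5 and 10.2, 10.8, 10.6, 10.3 and 5.91 CPM in Low 1 to 5. Low 5 was the exception among the Low libraries and lay within the High range. A second gene named PER1 on the list (ENSDARG00000056885) did not pass in any comparison. The log2 fold change of PER1 (ENSDARG00000012499) was -0.96 (SE 0.21, edgeR adjusted p = 0.034), kept in 6 of 15 fits without 1 library, and 0.12 was its adjusted p with the digestive covariate.

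Partners and relatives of C/EBP with the same kind of DNA-binding domain did not pass in any comparison, with 15 of 19 matched genes tested. In High against Control 12 of 15 lay below 0, where 52.1% of all genes did, with a median log2 fold change of -0.17. DDIT3, which encodes CHOP, a C/EBP-related protein that blocks the other members' binding, had 64.7 ± 14.3 CPM in High and 82.1 ± 11.9 CPM in Control (SD, n = 5 each, log2 fold change -0.34, edgeR adjusted p = 0.36). The stress factor gene atf4a had a log2 fold change of 0.14 (SE 0.15, adjusted p = 0.7 by edgeR). Genes for regulators of C/EBP protein, 12 tested, did not pass in any comparison either, and their median was 0.1 in High against Control. TRIB3, a stress-induced Tribbles gene, had 38 ± 3.59 CPM in High and 50.6 ± 5.48 CPM in Control (SD, n = 5 each), and its log2 fold change was -0.41 (SE 0.11, edgeR adjusted p = 0.085). For trib1 and TRIB2, whose mammalian counterparts send C/EBPα for degradation, the log2 fold changes were -0.05 and 0 (edgeR adjusted p = 0.93 and 1).

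No gene on the lists of liver targets of C/EBP passed. Of 29 tested acute phase and complement genes 0 passed in any comparison, and in High against Control 28 lay above 0, with a median log2 fold change of 1.32. Liver markers moved with this list, with which they share genes: 10 of the 21 liver markers are also acute phase list members. High 3 had a list mean of -1.18 log2 CPM where the remaining High libraries had 3.89 to 5.44, and a liver marker mean of 0.1 where they had 6.15 to 7.43. The 19 tested acute phase genes that are not liver markers had a mean of -1.22 in High 3 and 2.8 to 4.3 in the remaining High libraries. All 21 liver markers tested lay above 0 in High against Control, with a median of 1.17 and none passing. The part of liver content in the acute phase values was not tested. Metabolic liver targets showed a median of 0.38 with 17 of 24 above 0 and none passing. PCK1, the gluconeogenic enzyme gene, had 10.4 ± 8.33 CPM in High and 25.9 ± 30.4 CPM in Control (SD, n = 5 each, edgeR adjusted p = 0.71). Its Control mean rests on Control 2 and Control 4, at 60.8 and 57.5 CPM. By median, PCK1 had 8.92 CPM in High and 6.05 CPM in Control.

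Granulocyte and macrophage genes, the cells in which CEBPA and cebp1 act in blood, had a median log2 fold change of 0.06 in High against Control, with 0 of 33 passing. In High against Low 1 rose and 32 did not pass, where 0.672% of all genes were called higher and 1.04% lower in High. This was mmp13a (ENSDARG00000012395), a matrix-degrading protease gene, with 4.15, 7.3, 2.01, 1.39 and 1.8 CPM in High 1 to 5 and 0.658, 0.77, 0.436, 1.25 and 0.545 CPM in Low 1 to 5. Every High library lay above every Low library, as in 1.88% of all genes. The log2 fold change was 2.18 (SE 0.44, edgeR adjusted p = 0.028, and 0.11 with the digestive covariate). Counts of mmp13a were 11 to 212 per library in these groups. Its edgeR call was kept in 10 of 15 fits without 1 library. Lysozyme, lyz, a granulocyte marker, had 6.67 ± 4.78 CPM in High and 1.21 ± 1.46 CPM in Low (SD, n = 5 each, edgeR adjusted p = 0.11).

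Fat cell differentiation and lipid storage genes, the third known program of the family, did not pass in any comparison, with 25 tested and a median log2 fold change of 0.09 in High against Control. The fat cell regulator gene pparg, which C/EBP factors induce in mammals, had 4.88 ± 2.01 CPM in High and 4.52 ± 1.3 CPM in Control (SD, n = 5 each, edgeR adjusted p = 0.9). Of 10 skin, 11 skeletal muscle and 15 neuron markers tested, 1 passed in any comparison. This was agr1 (ENSDARG00000060682), a gene of mucus-secreting cells. It rose in High against Low, where 0.672% of all genes were called higher and 1.04% lower in High. Its level was 53.7 ± 12.1 CPM in High, against 27.7 ± 5.03 CPM in Low (SD, n = 5 each, log2 fold change 0.96, SE 0.18, edgeR adjusted p = 0.023). That call was kept in 10 of 15 fits without 1 library, with an edgeR adjusted p of up to 0.0697 (without Low 4).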

How the data were processed

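RNA of whole larvae with an integrity number above 8 was sequenced as paired 100 bp reads on a NovaSeq, per the labels' protocols; the protocol's number of 20 larvae is not tied to a sample. The authors deposited raw counts, 1 whole number for each Ensembl gene in each library. Trimmomatic, FastQC, MultiQC and DESeq2, and the builds GRCz11 and mm10, are named in the submitters' processing notes. The sources used here give no aligner, counter or strand setting. Columns were matched to samples by library name. The table had 32520 genes and 15 lines naming no gene, which were left out. Symbols came from a gene name table that matched 29201 identifiers. No pair of libraries of a group agreed within sampling noise (chi-square per gene 14.98 or higher).

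Genes were filtered with filterByExpr, scaled with TMM factors and tested in R 4.3.3 with edgeR 4.0.16 (robust quasi-likelihood, all 15 libraries, 1 coefficient per group), with Benjamini-Hochberg adjustment over 22012 genes and a threshold of 0.05. Standard errors are the fold change over the square root of F. CPM use TMM-scaled totals, and log2 CPM a prior count of 2. The method was tested on simulated data. Alternatives were other scaling, filters, DESeq2 1.42.0, limma 3.58.1 voom with sample weights (a change of tool and weighting together), fits on 2 groups, the replicate number as a block, a digestive covariate, and each library left out.

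The members and 14 gene lists (295 names, 33 unmatched) were chosen with earlier results of these data known. The naming rule took the members, up to 3 passing genes per list and comparison, and the 3 genes most alike to each tested member. 1 gene that this rule names is not reported here. The name mt2, whose synonym points to another gene, was left unmatched.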

Additional observations from a re-analysis of the deposited data

Results flagged for a closer look

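In groups of 5 libraries, 10 of 66 combinations of a group with a gene or list held 1 library far from the rest. The rule marks about 1 in 20 among independent, normally distributed values. Lists here share genes and several marks fall on the same library, so that rate cannot be set against these marks. CEBPD in Control 1 was 277 CPM, against 94.4 to 147 CPM in the other Control libraries, and CEBPA in Control 1 was 63.8 CPM, against 43.9 to 48.6 CPM. PER1 (ENSDARG00000012499) in Low 5 was 5.91 CPM, against 10.2 to 10.8 CPM in the other Low libraries. The mean log2 CPM of acute phase genes was -1.18 in High 3, against 3.89 to 5.44 in High 1, 2, 4 and 5. For metabolic liver genes High 3 had 1.43, against 4.43 to 5.51, and for liver markers 0.1, against 6.15 to 7.43. In Low 5 it was 5.14 for intestine, 8.17 for skin, 9.47 for skeletal muscle and 7.02 for neuron markers, against -1.14 to -0.06, 7.61 to 7.76, 7.37 to 7.86 and 7.25 to 7.34 in the other Low libraries.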

How the results depend on the processing

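The fall of CEBPD in High against Control kept its direction and its call in all 8 other settings and in all 15 fits without 1 library, at log2 fold changes of -1.74 to -1.65 and of -1.86 to -1.38, with edgeR adjusted p of at most 0.0498 (without High 4). The count of members called was 1 in every one of these fits in High against Control and 0 in Low against Control. In High against Low it was 0 in the reported fit and ranged from 0 to 1 without 1 library; it was 1 with DESeq2, 1 with weighted limma voom and 1 in the fit of the 2 groups. CEBPA, CEBPB and cebpg passed in none of these fits. Values near 0 changed sign: CEBPB in Low against Control was 0.13 with weighted limma voom and ranged from -0.17 to 0.13 without 1 library (above 0 without Control 1, Control 2 or Low 5), cebpg was 0.01 with weighted limma voom, CEBPA in High against Low ranged from -0.17 to 0 (0 without High 4), and lifrb in Low against Control from -0.19 to 0.01 (0.01 without Low 2). The cause was not tested. Of the values of single genes and list counts, 946 stayed the same, which means direction and call kept, or a count within 1.5 times. Of the rest, 43 lost a call, 17 gained one and 7 changed sign, and 91 counts moved by over 1.5 times or to or from 0.

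Counts of all genes called depended on the setting. Low against Control gave 0, and 64 by DESeq2, 1431 by weighted limma voom, 1 with the replicate block and 0 to 507 without 1 library (507 without Low 5). High against Control gave 115, and 987 by DESeq2, 275 by weighted limma voom, 51 in the fit of the 2 groups, 20 with the replicate block and 19 (without Control 4) to 362 (without High 3). High against Low gave 377, and 1679 by DESeq2, 4656 by weighted limma voom, 118 in the fit of the 2 groups, 106 with the replicate block, 56 with the digestive covariate and 39 (without Low 3) to 3778 (without Low 5). The labels give the replicate numbers no meaning. Deviations of same-numbered libraries correlated at -0.54 to 0.54. Differently numbered libraries were not compared, so these values do not decide whether the numbers pair the samples. With the replicate block CEBPD had a log2 fold change of -1.65 in High against Control (edgeR adjusted p = 0.024). Depth limits cebp1, with at most 4 counts in a library.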
